A study of Mus musculus with 6 samples.

Results

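The genes of the mitochondrial respiratory chain were examined in 6 RNA-seq libraries of mouse spleen CD8+ T cells. Members were all rows of the deposited expression table whose symbol begins with Nduf, Sdh, Uqcr, Cox followed by a digit, Atp5, mt-Nd, mt-Co, mt-Cytb or mt-Atp, with 3 pseudogene rows left out. The rule found 113 of the 14750 genes in the table, of which 100 are encoded in the nucleus and 13 in mitochondrial DNA.

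The study compared T cells after haematopoietic stem cell transplantation (HSCT). The 3 syn-HSCT libraries are labelled as BALB/c donor cells in BALB/c hosts, and the 3 allo-HSCT libraries as C57BL/6 donor cells in BALB/c hosts. All 6 share the BALB/c host, the spleen source and isolation of CD8+ T cells with a kit, and the strain field of the labels reads Balb/c for every sample. Time after transplantation and the age of the mice are not given in the labels, and no label ties each library to a mouse of its own. P-values therefore speak of the scatter among these samples, which may be technical. Genes that differ between the strains went against the labels: H2-Ea-ps, which C57BL/6 mice do not express, had a mean of 4.76 FPKM in the libraries labelled syn-HSCT and 1955 FPKM in those labelled allo-HSCT. The nearby gene H2-Eb1 also differed, at 48.0 and 1355 FPKM, and the part of other cell types in these differences was not tested. Ly6a, which T cells of BALB/c mice carry at a low level, stood at 332 and 28.6 FPKM. The table's columns for the libraries labelled syn-HSCT are named CD8_A and those for the libraries labelled allo-HSCT CD8_S, as are the sample titles. Whether the 2 labels were exchanged was not tested, and an exchange would turn every direction given below. The groups are therefore called by their labels throughout, and every difference is the libraries labelled allo-HSCT minus those labelled syn-HSCT.

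The respiratory chain sits in the inner mitochondrial membrane. Complex I (NADH dehydrogenase) and complex II (succinate dehydrogenase) pass electrons to ubiquinone, complex III passes them on to cytochrome c, complex IV (cytochrome c oxidase) reduces oxygen, and complex V (ATP synthase) uses the proton gradient that complexes I, III and IV build. Complex II is encoded wholly in the nucleus, whereas the other complexes join nuclear subunits to a core of subunits made inside the organelle. T cells enlarge this machinery when they are activated, and memory CD8+ T cells are known for their reliance on it.

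Levels are FPKM, fragments scaled to the exon length in kilobases and to the fragment total of the library. The fragment totals behind them, recovered from the smallest steps of the values, were 15153654 to 18714592 per library, so that 1 fragment on 1 kb of exon is worth 0.0534 to 0.066 FPKM. Changes were tested with limma on log2(FPKM + 1) over the 12404 genes that reached 1 FPKM in 3 or more libraries. A gene was called when its Benjamini-Hochberg adjusted p was under 0.05, and a log2 difference on this scale understates the change of low genes. Of the 113 members 110 passed the filter on low values, and Ndufb2, Sdhaf1 and Sdhaf3 did not. Lineage markers moved with the groups. Of the 8 genes of the T cell receptor complex and CD8, 6 fell and Cd8a rose, and their summed level was 2588 to 2620 FPKM in the libraries labelled syn-HSCT and 2018 to 2154 FPKM in those labelled allo-HSCT. All 9 tested dendritic cell markers rose, from sums of 77.1 to 81.6 FPKM to sums of 452 to 478 FPKM, with Cd209a at 0 in the 3 libraries labelled syn-HSCT. Of 10 neutrophil markers tested 9 rose, from 95.5 to 104 FPKM to 1988 to 2104 FPKM. Of 10 macrophage and monocyte markers 9 rose and Ly6c2 fell (157 to 172 FPKM against 376 to 378 FPKM), and all 5 tested erythroid markers rose (1.65 to 1.79 FPKM against 60.3 to 75.4 FPKM). Of 3 tested NK cell markers 2 rose and 1 fell, as did 2 and 1 of 3 CD4+ T cell markers, and of 2 tested B and plasma cell markers Jchain rose. Some markers passed the filter only through the group where they were high, which fixed the direction of any call. The dendritic ones were Flt3, Batf3, Zbtb46, Cd207 and Siglech, and the neutrophil ones Csf3r, Cxcr2 and Mpo. Adgre1, Mertk, Hba-a1, Hba-a2, Hbb-bt, Alas2 and Klrb1c were the others. All 10 cell cycle genes fell, from 1026 to 1047 FPKM to 506 to 518 FPKM. The part of these other cells in the differences below was not tested, and in bulk RNA fewer cells of a type and less RNA per cell cannot be told apart.

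In the libraries labelled allo-HSCT most nuclear-encoded respiratory chain genes were lower, and most mitochondrially encoded ones were not. Of the 13 mitochondrially encoded members 2 fell (15.4%), 5 rose (38.5%) and 6 were not called. Beside 33.0% and 34.7% of all genes tested, the share that rose was near that of genes at large. Of 97 tested nuclear members 67 fell (69.1%), 8 rose (8.25%) and 22 were not called, where 33.0% of all genes tested fell and 34.7% rose (67.6% called in either direction). Their log2 differences ran from -0.90 to 1.51 with a median of -0.25, beside 0.0083 over all genes tested. The upper end is Cox6a2, which passed the filter only through the libraries labelled allo-HSCT, so its direction was fixed. The next largest was Cox6b2, at 0.98. Many of the nuclear members are abundant, so the same counts were taken at a higher level. Among the 85 nuclear members with at least 5 FPKM in at least 3 libraries, 64 fell and 5 rose. Of all genes at that level 40.2% fell and 34.9% rose. In 65 of the 67 members that fell, the 2 groups did not overlap. The exceptions were Ndufb3 and Atp5k, whose calls were lost without syn-HSCT replicate 2 or 3 or allo-HSCT replicate 1 or 3 (limma adjusted p = 0.0635 to 0.0693 for Ndufb3 and 0.105 to 0.135 for Atp5k). Among all genes called lower this was so in 4070 of 4092, so the called members did not stand out by it. Called or not, 67 of the 97 tested nuclear members were lower and 8 higher with no overlap. Over all genes tested, 35.3% were lower and 37.0% higher with no overlap.

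**Figure D1:**
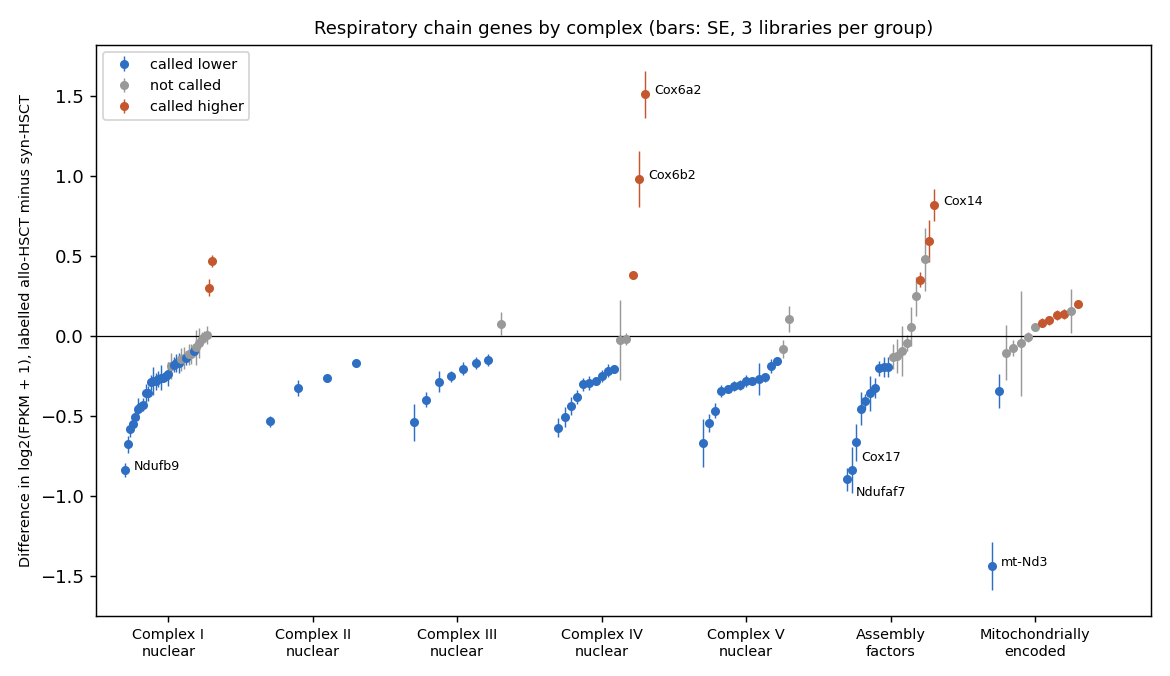
Difference in log2(FPKM + 1), libraries labelled allo-HSCT minus those labelled syn-HSCT (vertical axis), for each tested member, ordered within its complex; points are estimates from 3 libraries per group, bars are SE and colours are the limma calls. Most nuclear subunits lie between 0 and -0.6, with Cox6a2 and Cox6b2 far above, and most mitochondrially encoded members lie near 0.

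The summed level of the nuclear subunits was 4640, 4707 and 4640 FPKM in the libraries labelled syn-HSCT and 3982, 3889 and 3921 FPKM in those labelled allo-HSCT. That is 1.52 to 1.55% of each library's total FPKM against 1.26 to 1.28%. The sums of each complex were lower as well. Complex I nuclear subunits summed to a mean of 1264 FPKM in the libraries labelled syn-HSCT and 1072 FPKM in those labelled allo-HSCT, complex II subunits to 227 and 183 FPKM, and complex III subunits to 479 and 404 FPKM. Complex IV nuclear subunits summed to 1370 and 1188 FPKM, and complex V subunits to 1322 and 1084 FPKM. In none of the 5 complexes did the sums of the groups overlap. The summed level of the 13 mitochondrially encoded members was 18257, 18177 and 18007 FPKM in the libraries labelled syn-HSCT against 18533, 19387 and 18626 FPKM. As a share of each library's total FPKM it was 5.94 to 6.00% against 5.97 to 6.30%, and these shares overlapped between the groups. The ratio of the mitochondrially encoded to the nuclear sum, which a single scaling factor per library cannot change, was 3.86 to 3.93 in the libraries labelled syn-HSCT and 4.65 to 4.98 in those labelled allo-HSCT.

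**Figure D2:**
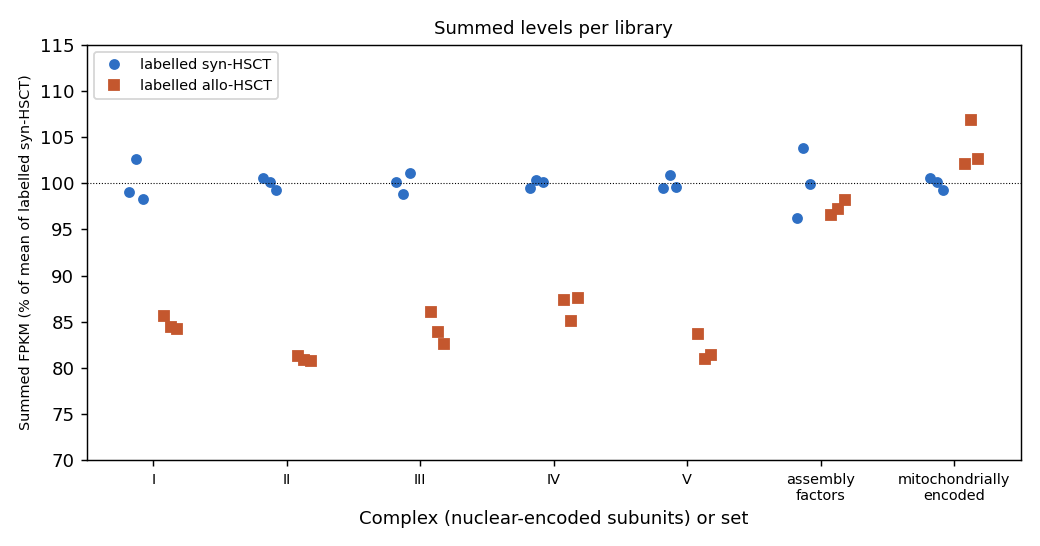
Summed FPKM of each set of members as a percentage of the mean of the libraries labelled syn-HSCT (vertical axis, which does not start at 0), 1 point per library. The nuclear subunits of all 5 complexes lie below the libraries labelled syn-HSCT, and the mitochondrially encoded sum lies above them.

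In complex I, 23 of 35 tested nuclear subunits fell (65.7%) and 2 rose (5.71%), with a median log2 difference of -0.24. Of all genes tested 33.0% fell and 34.7% rose. All 3 core subunits of the NADH-oxidising module fell. Ndufv1, which binds the flavin, stood at 37.3, 36.4 and 33.9 FPKM in the libraries labelled syn-HSCT and at 23.7, 25.5 and 25.5 FPKM in those labelled allo-HSCT, a log2 difference of -0.51 ± 0.05 (SE, n = 3 per group, limma adjusted p = 7.98e-05). Its iron-sulfur partners Ndufv2 and Ndufs1 fell by 0.43 and 0.14 on the log2 scale. The Ndufs1 call was lost without syn-HSCT replicate 1, 2 or 3 or allo-HSCT replicate 3 (limma adjusted p = 0.0564 to 0.0708). In the quinone-reducing module Ndufs3 and Ndufs8 fell, by 0.10 and 0.55 on the log2 scale, and the Ndufs3 call was lost without syn-HSCT replicate 2 or 3 or allo-HSCT replicate 1 or 2 (limma adjusted p = 0.0729 to 0.0915). Ndufs7, of the same module, was not called and had means of 21.7 FPKM in both groups, and the 95% interval of its log2 difference ran from -0.13 to 0.14.

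The accessory subunits surround this core and are needed to build and hold it. Of 28 tested, 17 fell (60.7%) and 2 rose (7.14%), beside 33.0% and 34.7% of all genes tested. Ndufb9 had the largest fall, from 20.5, 22.4 and 22.2 FPKM to 11.6, 11.8 and 11.6 FPKM, 1.86-fold lower (log2 difference -0.84 ± 0.04, SE, n = 3 per group, limma adjusted p = 4.01e-06). Ndufa11 followed, from a mean of 17.7 to 10.7 FPKM, and Ndufb7 from 22.7 to 14.8 FPKM, both without overlap. The most abundant accessory subunits moved little: Ndufa1 fell from 93.3 to 82.2 FPKM and Ndufb11 from 88.7 to 78.9 FPKM, whereas Ndufa2 stood at 82.1 and 81.0 FPKM and was not called. The Ndufb11 call was lost without syn-HSCT replicate 1 (limma adjusted p = 0.133) or 2 (0.112) and without allo-HSCT replicate 2 (0.0603) or 3 (0.0953), and also with no filter on low values (0.0524) or no eBayes trend (0.0785). Ndufa6, an LYR-motif subunit that anchors the acyl carrier protein, moved the other way, from 21.8, 22.5 and 21.0 FPKM to 31.5, 30.3 and 29.5 FPKM. Every library labelled allo-HSCT was above every one labelled syn-HSCT, with a log2 difference of 0.47 ± 0.04 (SE, n = 3 per group, limma adjusted p = 4.20e-05). Ndufc2, a subunit of the membrane arm, rose from a mean of 38.6 to 47.7 FPKM (log2 difference 0.30). The other accessory subunits not called are given by their group means. Ndufa3 stood at 40.6 and 39.0 FPKM, Ndufa7 at 21.3 and 21.2 FPKM and Ndufs5 at 30.6 and 28.2 FPKM. Ndufs4 stood at 18.2 and 16.2 FPKM, Ndufb4 at 14.4 and 12.6 FPKM and Ndufc1 at 9.98 and 9.35 FPKM. Ndufb5 stood at 9.50 and 8.51 FPKM and Ndufab1, the acyl carrier protein, at 3.59 and 3.23 FPKM. The exon length in the annotation includes long alternative exons for Ndufab1, so its level per length is not comparable with those of the short genes. Ndufb2, left out by the filter, stood at 0.913 and 0.984 FPKM on an exon length of 5628 bases, so its level is likewise not comparable.

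Complex II has 4 subunits, and all 4 fell with no overlap (median log2 difference -0.30). Of all genes tested 33.0% fell, and 35.3% were lower with no overlap, called or not. Sdhb, the iron-sulfur subunit, stood at 55.3, 54.3 and 56.5 FPKM in the libraries labelled syn-HSCT and at 39.1, 38.2 and 36.4 FPKM in those labelled allo-HSCT. Its log2 difference was -0.54 ± 0.03 (SE, n = 3 per group, limma adjusted p = 1.07e-05), beside -0.27 ± 0.02 for Sdha, the flavoprotein that oxidises succinate. Of the 2 membrane anchors, Sdhc fell from a mean of 22.2 to 17.4 FPKM and Sdhd from 80.1 to 71.0 FPKM.

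In complex III, 7 of 8 nuclear members fell (87.5%, median -0.23), beside 33.0% of all genes tested. The Rieske iron-sulfur protein Uqcrfs1, which takes electrons from ubiquinol, stood at 78.0, 75.6 and 79.8 FPKM against 63.0, 64.6 and 67.8 FPKM. Uqcrb, a small subunit near the quinone site, had the largest fall, from a mean of 48.6 to 32.9 FPKM, followed by the core protein Uqcrc1, from 46.3 to 34.8 FPKM. Uqcrh and Uqcr10, the most abundant with Uqcrfs1, fell from 99.3 to 88.0 FPKM and from 92.3 to 75.4 FPKM. Uqcr11 was the member not called, at 32.5 and 34.3 FPKM. Of the words of 50 bases in Uqcrb transcripts 25.4% also occur in transcripts of other annotated loci, so its level is uncertain. Cytochrome c1 and cytochrome c, which the symbol rule leaves out, also fell: Cyc1 had means of 44.0 and 40.9 FPKM, and Cycs of 24.4 and 22.4 FPKM.

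In complex IV, 10 of 15 nuclear subunits fell (66.7%) and 3 rose (20%), with a median of -0.25. Of all genes tested 33.0% fell and 34.7% rose. Cox8a, the most abundant, stood at 246, 248 and 252 FPKM against 209, 199 and 203 FPKM, a log2 difference of -0.29 ± 0.02 (SE, n = 3 per group, limma adjusted p = 5.38e-05). Cox4i1, which joins mt-Co1 early in assembly, fell from a mean of 174 to 146 FPKM, and Cox5b, a zinc-binding subunit, from 64.4 to 43.0 FPKM. Cox6a1 and Cox6b1, the isoforms of most tissues, fell from 192 to 166 FPKM and from 159.9 to 122 FPKM. Their tissue-restricted counterparts rose. Cox6a2, the heart and muscle isoform, stood at 0.576, 0.488 and 0.471 FPKM in the libraries labelled syn-HSCT and at 3.87, 3.78 and 2.43 FPKM in those labelled allo-HSCT, 6.56-fold higher. It passed the filter on low values only through the libraries labelled allo-HSCT, and drops out of the test when any of those 3 is left out, so its call among the 8 that rose is given with no p. Cox6b2, the testis isoform, stood at 1.71, 0.699 and 1.16 FPKM against 3.36, 2.82 and 3.57 FPKM, also without overlap (0.98 ± 0.17, limma adjusted p = 0.00221).

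Even so, both stayed minor forms. Cox6a2 made up 0.25 to 0.30% of the summed Cox6a FPKM in the libraries labelled syn-HSCT and 1.40 to 2.35% in those labelled allo-HSCT, and Cox6b2 made up 0.45 to 1.06% and 2.38 to 2.82% of Cox6b. Cox6a2 is also known in plasmacytoid dendritic cells, and their marker Siglech stood at 0.0277 FPKM in the libraries labelled syn-HSCT and 9.62 FPKM in those labelled allo-HSCT. Its part in the Cox6a2 difference was not tested. Cox7a1, the muscle form of Cox7a, stood at 1.86 and 1.87 FPKM and was not called, and Ndufa4, now known as a complex IV subunit, stood at 67.5 and 66.6 FPKM.

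Cox7a2l, which joins complexes III and IV into supercomplexes in place of Cox7a2, rose while Cox7a2 fell. Cox7a2l stood at 135, 136 and 137 FPKM in the libraries labelled syn-HSCT and at 176, 175 and 180.4 FPKM in those labelled allo-HSCT, a log2 difference of 0.38 ± 0.02 (SE, n = 3 per group, limma adjusted p = 5.36e-06). Cox7a2 stood at 71.5, 72.1 and 68.9 FPKM against 51.4, 56.5 and 48.3 FPKM (-0.44 ± 0.06, limma adjusted p = 0.000402). The ratio of Cox7a2l to Cox7a2 was 1.92 ± 0.06 in the libraries labelled syn-HSCT and 3.42 ± 0.31 in those labelled allo-HSCT (SD, n = 3 each), with no overlap. Of the Cox7a2l words 13.8% occur at other annotated loci. As background, C57BL/6 mice are known to carry a shortened form of this protein, and gene-level FPKM do not separate alleles.

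**Figure D3:**
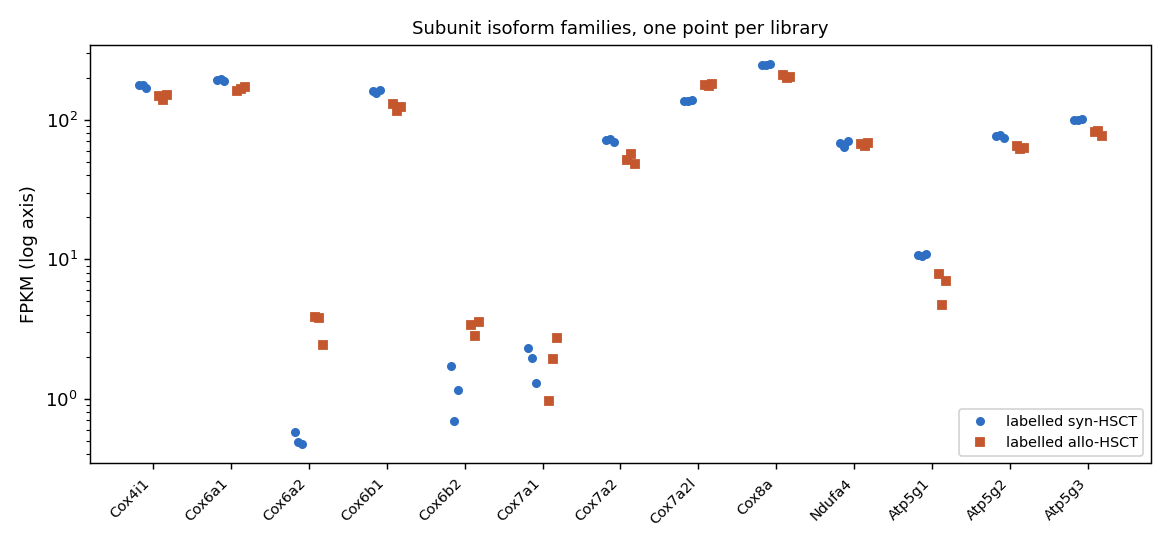
FPKM of subunit isoform families on a log axis, 1 point per library, with libraries labelled syn-HSCT as circles and those labelled allo-HSCT as squares. The squares lie slightly below the circles for most abundant isoforms and above them for Cox6a2, Cox6b2 and Cox7a2l.

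In complex V, 13 of 15 nuclear subunits fell (86.7%) and none rose (median -0.28), beside 33.0% and 34.7% of all genes tested. In the F1 head, which makes ATP, the catalytic subunit Atp5b stood at 233, 235 and 229.7 FPKM against 194, 191 and 189 FPKM, a log2 difference of -0.28 ± 0.02 (SE, n = 3 per group, limma adjusted p = 1.93e-05). Atp5a1, the most abundant nuclear-encoded member, fell from a mean of 272 to 216 FPKM, and Atp5c1, of the central stalk, from 126 to 101 FPKM. Atp5e, the smallest subunit of the stalk, stood at 58.9 and 63.4 FPKM and was not called. The 4 peripheral stalk subunits fell, with Atp5j (39.5 to 26.7 FPKM) and Atp5o (59.5 to 42.8 FPKM) furthest. In the membrane part Atp5j2 and Atp5k fell and Atp5l stood at 11.6 and 10.9 FPKM. The c ring is made from 3 genes that encode the same mature protein, and all 3 fell. Atp5g1, the least abundant of them, stood at 10.8, 10.6 and 10.8 FPKM against 7.78, 4.71 and 6.96 FPKM, and made up 5.75% and 4.32% of the summed c ring FPKM on average. The exon length used for Atp5g1 is 4912 bases, against 1675 for Atp5g2 and 2181 for Atp5g3, and 36.7% of the Atp5g2 words occur at other loci, so these shares are uncertain.

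Assembly factors build the complexes and leave them, and their calls were mixed. Of 20 tested, with coupling factor B (Atp5s) counted among them, 10 fell (50%) and 3 rose (15%), beside 33.0% and 34.7% of all genes tested. Their median log2 difference was -0.16, and their summed level was 146 to 158 FPKM in the libraries labelled syn-HSCT and 146.7 to 149.2 FPKM in those labelled allo-HSCT. Ndufaf7, a methyltransferase needed for complex I assembly, stood at 12.6, 14.3 and 12.2 FPKM against 6.42, 7.01 and 6.13 FPKM (-0.90 ± 0.07, SE, n = 3 per group, limma adjusted p = 3.98e-05). Cox17, a copper chaperone of complex IV, stood at 1.99, 3.36 and 2.57 FPKM against 1.00, 0.922 and 1.11 FPKM (-0.84 ± 0.14, limma adjusted p = 0.00171). Cox14, which holds newly made mt-Co1, moved the other way, from 17.1, 22.4 and 18.7 FPKM to 37.0, 32.1 and 35.1 FPKM, 1.79-fold higher (0.82 ± 0.10, limma adjusted p = 0.000327). None of these 3 genes overlapped between the groups.

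The complex I assembly factors Ndufaf4 and Ndufaf6 also rose, from 4.52 to 6.03 FPKM and from 3.44 to 5.68 FPKM. The factors not called were Ndufaf8 (9.33 and 9.67 FPKM), Sdhaf4 (7.14 and 8.60 FPKM), Cox11 (4.17 and 3.72 FPKM), Cox16 (2.72 and 2.42 FPKM), Cox18 (7.10 and 6.82 FPKM), Cox20 (1.05 and 1.81 FPKM) and Atp5s (1.61 and 1.46 FPKM). Sdhaf1 and Sdhaf3, left out by the filter, were below 1.1 FPKM in every library. Among assembly factors and related genes outside the symbol rule 11 of 33 tested fell (33.3%) and 3 rose (9.09%), beside 33.0% and 34.7% of all genes tested. Surf1, a complex IV factor, fell from 27.8 to 18.2 FPKM, whereas the complex IV factor Coa5 rose from 30.0 to 39.9 FPKM and Atpif1, the inhibitor of the ATP synthase, from 17.1 to 25.5 FPKM.

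The 13 mitochondrially encoded members fell into 2 classes of level. In every library mt-Nd1, mt-Nd2, mt-Nd4, mt-Nd5, mt-Nd6, mt-Cytb and mt-Co1 lay between 824 and 8597 FPKM, and the remaining 6 genes lay between 4.25 and 68.8 FPKM. Of those 6, mt-Co2, mt-Co3, mt-Atp6, mt-Nd4l and mt-Nd3 share 98.0 to 100% of their 50-base words with other annotated transcripts. These copies lie in a stretch of chromosome 1 between 24611535 and 24616197 (GRCm38), which is known to hold an inserted piece of mitochondrial DNA. The annotation has no copy of mt-Atp8, which lies between mt-Co2 and mt-Atp6 in mitochondrial DNA. In the 7 abundant genes 0 to 62.2% of the words were shared. How the authors' counting treated fragments that match 2 places is not given in the sources used here. The levels of the 5 low genes with copies are therefore uncertain. So in part are those of mt-Co1 and mt-Nd4, with 51.1% and 62.2% of words shared. mt-Atp8 shares 0% of its words, and why its level is low was not tested.

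**Figure D4:**
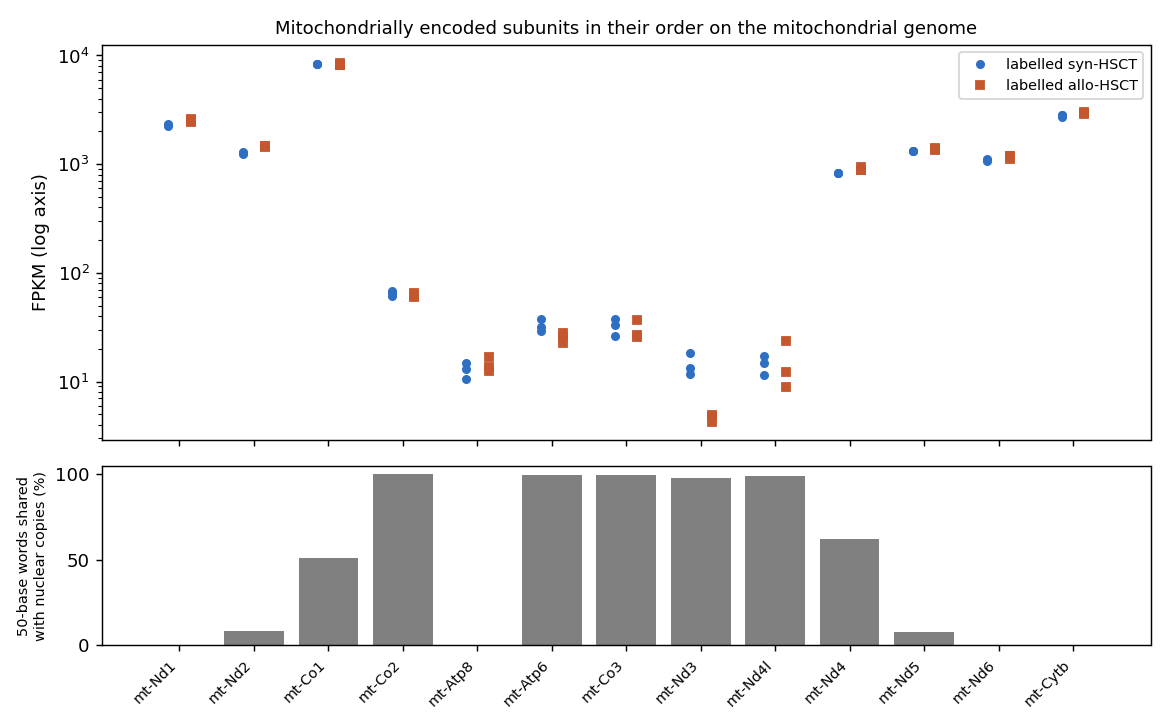
FPKM of the mitochondrially encoded members in their order along mitochondrial DNA (horizontal axis), on a log axis with 1 point per library, and below it bars of the percentage of each gene's 50-base words found in transcripts of other annotated loci. The 7 abundant genes lie above 824 FPKM, and the 6 others, which are neighbours in the middle of the map, lie at or below 68.8 FPKM.

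Among the 7 abundant genes differences were small. The largest was that of mt-Nd2, at 1276, 1290 and 1249 FPKM in the libraries labelled syn-HSCT and 1433, 1483 and 1454 FPKM in those labelled allo-HSCT (log2 difference 0.20 ± 0.02, SE, n = 3 per group, limma adjusted p = 0.000305). The complex I genes mt-Nd1, mt-Nd4 and mt-Nd6 were called higher by 0.13, 0.13 and 0.09 on the log2 scale, and all 3 turned negative after quantile normalization. Cytochrome b, mt-Cytb, was called higher by 0.08 (limma adjusted p = 0.0368), and its difference was 0 after quantile normalization. The calls of mt-Nd6 and mt-Cytb were lost without syn-HSCT replicate 2 or 3 or without allo-HSCT replicate 2 (limma adjusted p = 0.0511 to 0.117 for the 2 genes), and that of mt-Nd6 also without allo-HSCT replicate 3 (0.065). mt-Nd5 stood at 1325 and 1376 FPKM and was not called, nor was mt-Co1, the catalytic subunit of complex IV, at 8384, 8372 and 8397 FPKM against 8189, 8597 and 8217 FPKM. The 95% interval of the mt-Co1 difference ran from -0.08 to 0.06. mt-Nd6 is the one member on the other strand of mitochondrial DNA, and since the labels do not name a strand-specific kit, its reads cannot be told apart from those of the opposite strand. The ribosomal RNAs of the organelle, which rRNA depletion removes in part, stood at 362 and 691 FPKM for mt-Rnr1 and 454 and 887 FPKM for mt-Rnr2.

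Of the 6 low genes mt-Nd3 and mt-Atp6 were called lower. The mt-Atp6 difference was -0.35 ± 0.11 (SE, n = 3 per group, limma adjusted p = 0.0228), and its call was lost without syn-HSCT replicate 2 (0.0563) or without allo-HSCT replicate 3 (0.0618). The other 4 were not called, with group means as follows: mt-Co2 65.4 and 62.0 FPKM, mt-Co3 32.2 and 29.9 FPKM, mt-Nd4l 14.5 and 14.9 FPKM, and mt-Atp8 12.7 and 14.3 FPKM. mt-Nd3 had the largest fall of any member, from 18.4, 11.8 and 13.4 FPKM to 4.25, 4.92 and 4.74 FPKM, 3.13-fold lower (log2 difference -1.44 ± 0.15, limma adjusted p = 0.000149).

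The fall of mt-Nd3 was mirrored at its nuclear copy. Gm28438 (chr1:24612775-24613119, minus strand, GRCm38) stood at 4.54, 5.29 and 2.79 FPKM in the libraries labelled syn-HSCT and at 11.0, 15.2 and 13.6 FPKM in those labelled allo-HSCT (1.48 ± 0.20, SE, n = 3 per group, limma adjusted p = 0.000594). The sum of both was 18.7 ± 3.69 FPKM and 17.9 ± 2.49 FPKM (SD, n = 3 each), and the groups overlapped. mt-Nd3 took 69.0 to 82.7% of the pair in the libraries labelled syn-HSCT and 24.4 to 27.9% in those labelled allo-HSCT. Over the 345 bases of the copy the 2 transcripts differ at 1 base, T3C, counted from 1 at the 5′ end of mt-Nd3 with the mt-Nd3 base first. Their first 45 bases (GENCODE vM21, GRCm38) are shown because they hold this base, in capitals.
mt-Nd3: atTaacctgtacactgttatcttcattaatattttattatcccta
Gm28438: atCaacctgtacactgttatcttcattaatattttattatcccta
It does not change the amino acid, and as background the mitochondrial genomes of C57BL/6 and BALB/c mice are known to differ at this codon. Which base the libraries carry was not tested, since the files hold no reads. The neighbouring copies Gm28661 and Gm10925 fell, from 43.0 to 30.3 FPKM and from 43.5 to 29.8 FPKM, while Gm28437, Gm29216 and Gm28439 were not called.

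**Figure D5:**
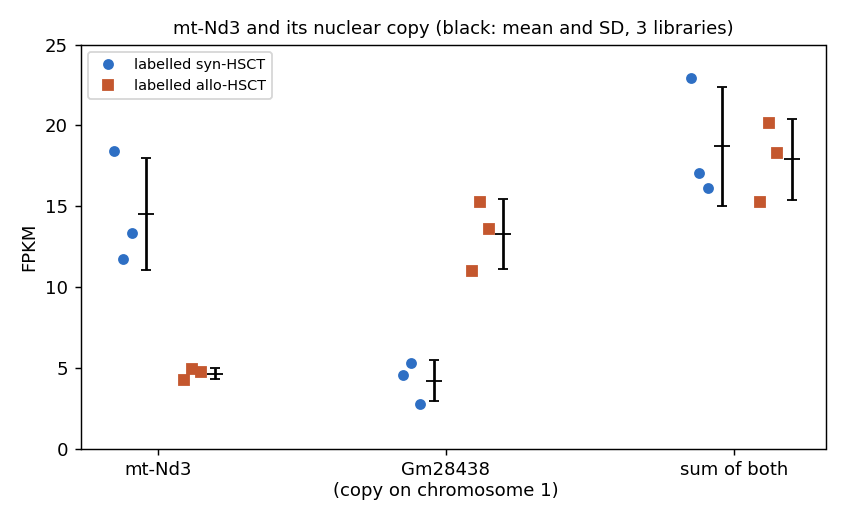
FPKM of mt-Nd3, of its copy Gm28438 on chromosome 1 and of their sum, 1 point per library, with the mean and SD of 3 libraries per group in black. mt-Nd3 is high where the copy is low and the reverse, and the sum overlaps between the groups.

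Of 24 tested genes of mitochondrial transcription and RNA handling 6 fell (25%) and 2 rose (8.33%), beside 33.0% and 34.7% of all genes tested, so the share that fell was not above that of genes at large. Tfam, which packages mitochondrial DNA and starts its transcription, stood at 17.9, 18.2 and 19.1 FPKM in the libraries labelled syn-HSCT and 11.9, 12.1 and 11.3 FPKM in those labelled allo-HSCT (-0.61 ± 0.04, SE, n = 3 per group, limma adjusted p = 1.83e-05). The polymerase Polrmt stood at 6.63 and 7.34 FPKM and the mRNA stabiliser Lrpprc at 7.67 and 8.74 FPKM, and neither was called. Of 8 genes of mitochondrial DNA maintenance 2 fell (25%) and 3 rose (37.5%), near the shares of all genes tested.

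Among 11 tested transcriptional regulators of respiratory chain genes 6 fell (54.5%) and 4 rose (36.4%), beside 33.0% and 34.7% of all genes tested. Nrf1 (nuclear respiratory factor) fell from 8.58 to 6.03 FPKM, and Gabpa, the DNA-binding part of the ETS factor GABP, from 22.7 to 17.4 FPKM. Gabpb1, Gabpb2, Yy1 and Sp1 fell too. Myc rose from 19.7 to 30.9 FPKM, Ppargc1b, a coactivator, from 1.30 to 3.22 FPKM, and the nuclear receptor Esrra from 16.3 to 20.1 FPKM. Pprc1, the remaining coactivator in the table, also rose.

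Promoters were read for the letters that these factors are known to bind, in windows from 250 bases before to 50 after the start (RefSeq, GRCm38.p6). Of the 100 nuclear members 85 were found there, with 91 windows. The NRF1 letters GCGCANGCGC, read on both strands, were in 24.2% of the members' windows, in 10.4% of windows of all genes tested and in 4.60% of all windows. The ETS letters CCGGAAG were in 29.7%, 18.9% and 8.86%, and the YY1 letters AANATGGC in 24.2%, 8.94% and 6.05%. The letters TCAAGGTCA, bound by estrogen-related receptors such as Esrra, were in 2.2%, 0.291% and 0.423%, which is 2 windows of members. NRF1 matches stood in 16 of 60 windows of members that fell, 2 of 6 of members that rose and 3 of 22 of members not called. For ETS these were 17, 1 and 7 windows, and for YY1 14, 0 and 8 windows. A match is a run of letters and not evidence of binding. The 150 bases before the start are shown for 4 members, to set NRF1 matches side by side in 2 members that fell (Sdha, Cox6a1), 1 that was not called (Ndufb4) and 1 that rose (Ndufaf4), with NRF1 and ETS matches in capitals.
Sdha (chr13:74350241-74350390, minus strand): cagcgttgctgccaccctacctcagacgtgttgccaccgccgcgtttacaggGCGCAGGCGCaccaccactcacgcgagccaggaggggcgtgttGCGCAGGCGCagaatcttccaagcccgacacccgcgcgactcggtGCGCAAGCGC
Cox6a1 (chr5:115348959-115349108, minus strand): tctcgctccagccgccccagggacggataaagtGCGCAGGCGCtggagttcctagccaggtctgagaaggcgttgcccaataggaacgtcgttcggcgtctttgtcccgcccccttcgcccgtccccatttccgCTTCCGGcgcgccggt
Ndufb4 (chr16:37654369-37654518, minus strand): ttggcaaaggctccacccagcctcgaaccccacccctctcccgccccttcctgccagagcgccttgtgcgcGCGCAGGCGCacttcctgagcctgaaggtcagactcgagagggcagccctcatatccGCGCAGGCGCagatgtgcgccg
Ndufaf4 (chr4:24897933-24898082, plus strand): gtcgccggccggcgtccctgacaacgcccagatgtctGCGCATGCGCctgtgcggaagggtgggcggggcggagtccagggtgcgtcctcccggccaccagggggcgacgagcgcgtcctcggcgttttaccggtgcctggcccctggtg
Sdha holds 3 such matches and fell, Ndufb4 holds 2 and was not called, and Ndufaf4 holds 1 and rose.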

How the data were processed

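CD8+ T cells were isolated from spleens with a kit, RNA was extracted with Trizol, rRNA was depleted and libraries were made with the NEB Next Ultra RNA kit, with strand handling not stated, per the labels' protocols. The authors deposited 1 table of FPKM per gene for 6 libraries. The unit was read from the values, and FPKM cannot be told apart from RPKM. The aligner, build and counting rule are not given in the sources used here, and limma is named in the submitters' processing notes. Values times the GENCODE vM21 exon length (GRCm38, 14739 genes matched by ID) were whole fragments within 0.1 in all libraries for 93% of genes. This gave the fragment totals, and no gene had a larger group mean under 0.5 FPKM. Tests used limma 3.58.1 in R 4.3.3 on log2(FPKM + 1), with a trended eBayes fit without covariates, tested first on simulated data. Shared sequence was counted as 50-base words of a member's transcripts found, in the same orientation, in annotated transcripts of another gene. The members and lists were chosen with earlier results of these data known. Genes were named by a rule: mitochondrial members, members called higher or not called, isoform families, and per complex the 3 most abundant and 3 most changed. Core subunits and others of stated role were added after their values were seen. Alternatives left out each library, changed filter, pseudocount, scaling, trend or replicate block, or ran voom on recovered fragments.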

Additional observations from a re-analysis of the deposited data

How the results depend on the processing

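Over 15 alternatives the nuclear-encoded members called lower numbered 57 to 69 and those called higher 5 to 10, beside 67 and 8. Leaving out 1 library in turn gave 57 to 64 nuclear members lower and 7 to 9 higher, 1 to 2 mitochondrially encoded members lower and 3 to 6 higher, and 8 to 9 assembly factors lower and 3 to 4 higher. The filter at 5 FPKM tested fewer genes and called 5 nuclear members higher. Mitochondrially encoded members called higher, 5 in the reported fit, numbered 1 after quantile normalization, 3 with trimmed-mean (TMM) factors and 3 without the eBayes trend. The cause was not tested. The replicate numbers did not pair the samples (correlations of same-numbered deviations 0.0627, 0.122 and -0.083). With the replicate block 67 nuclear members were lower and 10 higher, and 5 assembly factors were higher.

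Of 53 named members called, 14 lost the call in at least 1 alternative, and 3 changed sign, all after quantile normalization: mt-Nd1 to -0.048, mt-Nd4 to -0.051 and mt-Nd6 to -0.036. That setting also lost the calls of Ndufa1, Ndufb3, Ndufb11, Ndufs3, Sdhd, Uqcr10, Uqcrh, Atp5k and mt-Cytb. Calls lost with no filter were those of Ndufb11 and Atp5k (adjusted p 0.0524 and 0.0525), and calls lost without the eBayes trend were those of Ndufb11, Ndufs3, Atp5k, mt-Cytb and mt-Nd6 (0.0594 to 0.105). Ndufs3 also lost its call with voom (0.0987), and mt-Cytb and mt-Nd6 with TMM factors (0.0915 and 0.0525). Uncalled members that changed sign after quantile normalization were mt-Nd5 (-0.019), mt-Co2 (0.024), Ndufa2 (0.10, then called), Ndufa3 (0.022), Ndufa4 (0.082) and Ndufa7 (0.0083). Ndufs7 changed sign with TMM factors (-0.016), after removal of the mitochondrial, haemoglobin, antibody and T cell receptor genes (-0.018) and with voom (-0.0036). With 1 library left out, the differences of uncalled members that changed sign ran from -0.23 to 0.031 for Atp5s, -0.24 to 0.23 for Cox7a1, -0.050 to 0.021 for Ndufa2, -0.12 to 0.069 for Ndufa3, -0.057 to 0.012 for Ndufa4, -0.023 to 0.023 for Ndufa7, -0.031 to 0.19 for Ndufaf8, -0.20 to 0.032 for Ndufc1, -0.033 to 0.054 for Ndufs7, -0.032 to 0.0035 for mt-Co1, -0.27 to 0.0052 for mt-Co3 and -0.41 to 0.24 for mt-Nd4l. The filter on FPKM limits what can be said of genes near 1 FPKM. Ndufb2, Sdhaf1 and Sdhaf3, with exon lengths of 5628, 2490 and 5095 bases, were not tested in the reported fit. Cox6a2 could not be tested without any 1 of the libraries labelled allo-HSCT.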
